A study of Mus musculus with 30 samples.

Results

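Non-tumoral liver was compared between 4 vehicle-treated mice labelled as having developed hepatocellular carcinoma (HCC) and fibrosis and 5 vehicle-treated mice whose titles say without HCC and whose source label says that HCC and fibrosis did not develop. All 9 mice ate CD-HFD, a fat-rich diet without choline on which mice develop fatty hepatitis and, later, liver tumours, so the diet and the vehicle are shared by both groups. They were chosen by the array titles out of 30 mice with 1 array each. The remaining 21 arrays came from 10 mice on CD-HFD given sulindac, a cyclooxygenase inhibitor, 6 mice on CD-HFD given aspirin with clopidogrel, which together act on platelets, and 5 healthy mice on chow with vehicle. The labels name no strain, sex, age, diet duration, dose, batch or time of collection, and they place the sampled tissue outside the tumour. Mice with HCC are called Veh_high_798, Veh_high_1770, Veh_high_1831 and Veh_high_2088, and mice without HCC are called Veh_low_1810, Veh_low_1825, Veh_low_2091, Veh_low_794 and Veh_low_1819. Values given mouse by mouse follow these orders.

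Several pathways named here are well described in liver. Bone morphogenetic proteins (BMPs) bind receptors that phosphorylate SMAD proteins, and these switch on the Id genes and, in hepatocytes, Hamp, which encodes the iron hormone hepcidin. The liver clock is a feedback loop in which the proteins of Arntl and Clock activate Per, Cry and Nr1d genes whose products repress the activators, so that many liver transcripts rise and fall over the day. Enzymes of cholesterol synthesis are switched on together by the transcription factor of Srebf2 when cell sterol is low.

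Each level below is the log2 of a deposited array intensity, and each difference is the mean with HCC minus the mean without HCC on that scale, with its standard error (SE). Probe sets for 17097 genes were tested with limma, and a gene passed when its p, adjusted by the Benjamini-Hochberg method over all of them, was under 0.05. Median intensity per array was 24.1 to 24.6. Across genes, arrays correlated at 0.989 to 0.996 among the 6 pairs of mice with HCC, at 0.985 to 0.996 among the 10 pairs without HCC and at 0.983 to 0.995 over the 20 pairs between the groups. The median difference of all genes was -0.0075, and 46.6% of genes were higher with HCC while 53.4% were lower.

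In all, 15 genes passed, which is 0.0877% of those tested. Of these, 14 fell with HCC (0.0819%) and only Fam114a1 rose (0.00585%). They fall into target genes of BMP signalling (Id1, Id3), the clock repressor Cry1, and 4 genes for nuclear pore, cap-binding and chromatin proteins (Ahctf1, Ncbp2, Smarca5, Rest). The other genes that fell were Srrm1, Ipo7, Atf1, Lonrf3, Wrnip1, Fam13b and Caln1. For all 15 the mice with HCC and the mice without HCC did not overlap, as was so for 174 genes higher with HCC (1.02% of those tested) and 339 lower (1.98%). At an unadjusted p under 0.05 there were 1517 genes (8.87%), 571 higher with HCC (3.34%) and 946 lower (5.53%).

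The calls rest on few mice. In 10 of the 15 genes both Veh_high_1831 and Veh_high_2088 lay farther from the mice without HCC than both Veh_high_798 and Veh_high_1770, a pattern that 23.2% of all genes shared. Without Veh_high_2088 no gene passed (1148 at an unadjusted p under 0.05), without Veh_high_1831 only Srrm1 did, and with the 9 vehicle arrays alone in the fit none did (1536 at an unadjusted p under 0.05). Without Veh_low_2091, Veh_low_794 or Veh_low_1819 the count was 2, 4 or 4, and without Veh_high_798 it was 33. Each of the 15 differences kept its sign without Veh_high_1831 and Veh_high_2088. With groups that do not overlap, leaving out mice cannot change a sign, so this adds no support.

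**Figure D1:**
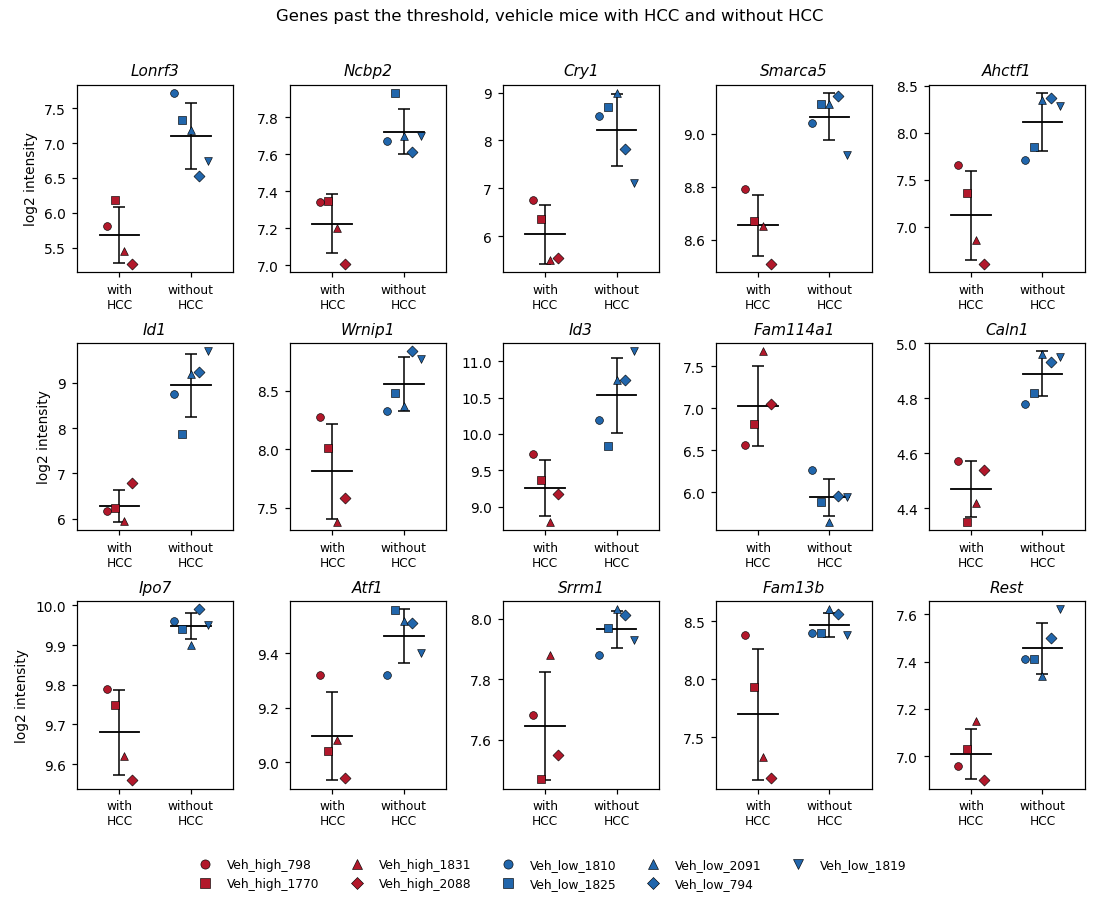
Log2 intensity of the 15 genes past the threshold, 1 panel per gene with its own vertical axis. Each symbol is 1 mouse, mice with HCC (red, n = 4) left of mice without HCC (blue, n = 5), and lines show the mean and SD. No panel has overlap between the groups, and Fam114a1 is the only gene that is higher with HCC.

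Id1 and Id3 encode small inhibitors of basic helix-loop-helix transcription factors and are direct targets of SMAD proteins. Id1 was at 6.18, 6.23, 5.96 and 6.79 in mice with HCC, against 8.75, 7.86, 9.18, 9.24 and 9.69 in mice without HCC. Every mouse with HCC was at least 1.07 below the lowest mouse without it. The difference was -2.66 (SE 0.48, limma adjusted p = 0.019), which is 6.3-fold lower with HCC. Id3 was at 9.72, 9.36, 8.79 and 9.17 in mice with HCC, against 10.19, 9.84, 10.75, 10.74 and 11.14 in mice without HCC. The groups were separated by 0.12, and Veh_high_798 lay closest to the mice without HCC. Id3 fell by 1.27 (SE 0.23, limma adjusted p = 0.0195). Id1 ranged from 7.01 to 9.36 under sulindac (median 8.35), from 6.25 to 8.38 under aspirin with clopidogrel (median 7.17) and from 6.28 to 8.12 in healthy mice (median 7.28). Among mice without HCC, Veh_low_1825 lay below the median under sulindac, while 3 of the mice with HCC lay below every mouse of the other groups.

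Other target genes of BMP signalling were lower with HCC without passing the threshold. Id2, another Id family member, was at 10.99, 10.66, 10.65 and 10.86 in mice with HCC, against 11.32, 11.09, 11.26, 11.59 and 11.63 in mice without HCC. Smad7, an inhibitor of the receptors, was at 5.36, 5.23, 5.44 and 5.12 with HCC and at 5.84, 5.46, 6.23, 5.78 and 6.41 without HCC. Hamp was at 11.56, 11.08, 12.17 and 11.94 with HCC, against 12.49, 12.26, 12.66, 12.91 and 12.85 without HCC. These 3 genes had groups without overlap, as had 1.98% of all genes in that direction, and all 3 probe sets of Id2 and both of Hamp were lower with HCC. Their differences were -0.59 (SE 0.15) for Id2, -0.66 (SE 0.15) for Smad7 and -0.94 (SE 0.27) for Hamp, with limma adjusted p = 0.134, 0.106 and 0.227. Mouse Hamp has a near-identical copy, Hamp2, and the probe sets may read both. Of the 9 target genes measured, 8 were lower with HCC, 5 of them (Id1 and Id3 included) at an unadjusted p under 0.05, against 5.53% of all genes, and the median difference was -0.59, beside -0.0075 over all genes. The list was written with Id1 and Id3 known to pass, and without these 2 the other 7 had 3 at that level and a median of -0.36. Id4 overlapped between the groups (5.43 ± 0.76 with HCC and 5.78 ± 0.32 without HCC, SD, n = 4 and 5), and Smad9 was higher by 0.06.

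Ligands, receptors and signal carriers of the pathway were divided in direction. Among 12 measured, 6 were higher and 6 lower with HCC, and the median difference was 0.02. Bmp4, Bmpr1a and Acvrl1 were below the median gene mean of 4.90 in every vehicle mouse. A lack of difference in such dim genes says little. Bmp6, the endothelial ligand that drives hepcidin in mouse liver, lay between 4.51 and 5.18 with HCC and between 4.81 and 5.59 without HCC. Bmp2 lay between 5.65 and 5.90 with HCC, inside its range of 5.19 to 6.31 without HCC. Smad4, the shared partner of the SMAD proteins, was the single one at an unadjusted p under 0.05, with a difference of -0.20 (SE 0.078, limma adjusted p = 0.413). Tfr2 and Hfe, membrane proteins that sense iron upstream of Hamp, differed by -0.08 (SE 0.086) and 0.05 (SE 0.074).

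Promoters of Id3, which fell, and Hamp, which has a described BMP response, are shown here because the data on BMP targets turn on them. Sequences are the 250 bases before the gene start from RefSeq (GRCm38.p6), written 5′ to 3′ on the strand of the gene. They lie at chr4:136143572-136143821 on the plus strand for Id3 and at chr7:30944030-30944279 on the minus strand for Hamp. Capitals mark GGCGCC, the core of a GC-rich SMAD element, searched on both strands.
Id3: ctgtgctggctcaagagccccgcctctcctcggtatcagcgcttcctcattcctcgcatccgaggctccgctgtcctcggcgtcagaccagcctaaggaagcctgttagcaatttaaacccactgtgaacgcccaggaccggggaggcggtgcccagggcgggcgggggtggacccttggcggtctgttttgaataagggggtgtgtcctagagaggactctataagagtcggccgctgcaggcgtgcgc
Hamp: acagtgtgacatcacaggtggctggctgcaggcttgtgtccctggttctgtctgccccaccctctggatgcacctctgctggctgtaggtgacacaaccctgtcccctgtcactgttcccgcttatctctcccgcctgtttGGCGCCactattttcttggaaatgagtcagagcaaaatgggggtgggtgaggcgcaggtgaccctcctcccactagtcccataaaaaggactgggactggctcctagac
GGCGCC began 109 bases before the start of Hamp, and the Id3 window held neither this motif nor any of the elements marked in the promoters shown further on. Among 6 promoters of BMP targets in the RefSeq table, GGCGCC occurred in 4 (Hamp, Id2, Id4, Smad9), or 66.7%, against 9.59% of 32851 promoters of the same length. Of the genes with GGCGCC, Id2 and Hamp were separated between the groups and Id4 and Smad9 were not. A match is a description of letters and not a measured site.

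Cry1, which encodes a core repressor of the clock, was the clock gene that passed. It was at 6.76, 6.35, 5.51 and 5.55 in mice with HCC, against 8.50, 8.69, 8.99, 7.82 and 7.12 in mice without HCC. The lowest mouse without HCC, Veh_low_1819, lay 0.36 above the highest mouse with HCC. Cry1 fell by 2.18 (SE 0.38, limma adjusted p = 0.019), or 4.54-fold. Levels in healthy mice, 8.15 to 8.58, lay inside the range of the mice without HCC. Under sulindac (4.94 to 6.90, median 5.56) and under aspirin with clopidogrel (5.58 to 7.19, median 6.17) the range of Cry1 overlapped that of the mice with HCC.

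Other clock genes divided the mice with HCC into pairs. Arntl, the activator partner of Clock, was at 6.82, 6.98, 4.31 and 4.43 with HCC, against 6.90, 7.22, 6.90, 7.58 and 7.16 without HCC. Nfil3, a repressor of clock output genes, was at 8.11, 8.10, 5.61 and 5.96 with HCC, against 8.04, 8.11, 8.35, 9.03 and 8.53 without HCC. In both genes Veh_high_798 and Veh_high_1770 were at the level of the mice without HCC, and Veh_high_1831 and Veh_high_2088 were more than 2 below every other vehicle mouse. The output gene Tef was at 7.40, 7.40, 10.41 and 9.86 with HCC and at 9.10, 8.72, 8.98, 8.10 and 8.47 without HCC, so that the pairs lay on opposite sides of the mice without HCC. Per3, a clock repressor, was at 4.92, 4.73, 7.62 and 6.97 with HCC, against 5.24, 5.00, 5.04, 4.41 and 4.66 without HCC. Usp2, a deubiquitinase gene with strong daily rhythm in liver, was at 4.26, 4.66, 8.91 and 8.40 with HCC. Without HCC it was at 7.43, 7.50, 8.03, 4.61 and 5.55, with Veh_low_794 and Veh_low_1819 the lower ones.

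Group differences average over that division, and were -1.52 (SE 0.54) for Arntl, -1.47 (SE 0.38) for Nfil3, 1.19 (SE 0.61) for Per3 and 2.42 (SE 1.05) for the output gene Dbp, with limma adjusted p = 0.351, 0.153, 0.584 and 0.481. Without Veh_high_1831 and Veh_high_2088 they were -0.26, -0.31, -0.05 and -0.39, whereas that of Cry1 was -1.67. Of 22 clock and clock output genes measured, 10 were higher and 12 lower with HCC, 2 and 6 of them at an unadjusted p under 0.05, against 3.34% and 5.53% of all genes. The 4 activators measured (Arntl, Clock, Npas2, Rora) were all lower, with a median of -0.56, the 10 repressors had a median of 0.13 and the 8 output genes one of 0.01. Those of the repressors and output genes turned sign, to -0.25 and -0.63 without Veh_high_1831 and Veh_high_2088, and to -0.16 and -0.31 without Veh_low_794 and Veh_low_1819. The activators had medians of -0.21 and -0.49 in these settings. Rora, a nuclear receptor that activates Arntl, was separated between the groups, at 9.19, 9.19, 9.35 and 8.99 with HCC and at 9.67, 9.49, 9.54, 9.69 and 9.73 without HCC. Its difference of -0.44 (SE 0.10, limma adjusted p = 0.0996) was shared by 3 of 5 probe sets. Tsc22d3, a glucocorticoid target with daily rhythm, differed by -0.78 (SE 0.27, limma adjusted p = 0.342). The labels give no collection time, so its part in these values was not tested.

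**Figure D2:**
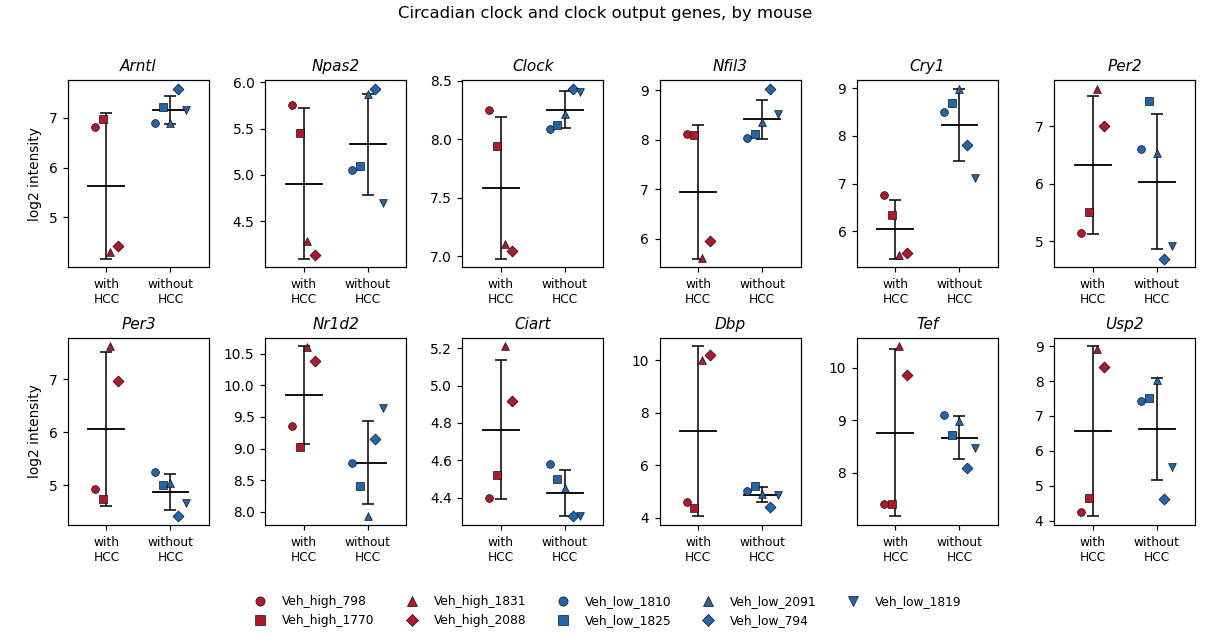
Log2 intensity of 12 clock and clock output genes, 1 panel per gene with its own vertical axis. Each symbol is 1 mouse, mice with HCC (red, n = 4) left of mice without HCC (blue, n = 5), with mean and SD lines. In Arntl, Nfil3, Per3, Dbp, Tef and Usp2, Veh_high_1831 and Veh_high_2088 (red triangle and diamond) lie away from Veh_high_798 and Veh_high_1770, whereas in Cry1 all 4 lie below the mice without HCC.

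The Cry1 promoter is given because its gene separated the groups in every mouse. It lies at chr10:85185055-85185304 on the minus strand, and the capitals mark the E-box CACGTG bound by the proteins of Arntl and Clock and a CCAAT box, neither overlapping the other.
Cry1: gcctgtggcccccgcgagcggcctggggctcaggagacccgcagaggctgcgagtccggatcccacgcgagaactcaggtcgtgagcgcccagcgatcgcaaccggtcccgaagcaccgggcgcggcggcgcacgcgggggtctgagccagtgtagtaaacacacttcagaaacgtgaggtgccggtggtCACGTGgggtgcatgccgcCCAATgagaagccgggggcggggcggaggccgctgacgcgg
The E-box began 60 and the CCAAT box 41 bases before the start. CACGTG occurred in 6 of 27 promoters of clock genes (22.2%), in 4 of 11 promoters of genes past the threshold (36.4%; Atf1, Cry1, Ipo7, Lonrf3) and in 6.02% of all promoters. CCAAT, searched on both strands, occurred in 33.8% of all promoters.

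On the list of nuclear pore, chromatin and splicing genes, 4 of 22 measured passed, all lower with HCC, against 0.0819% of all genes. They were 2 for pore and cap-binding proteins, 2 for chromatin proteins and 0 for splicing proteins. The 8 splicing and RNA-binding genes were all lower too, 3 of them at an unadjusted p under 0.05. Ahctf1 encodes ELYS, a nucleoporin that starts pore assembly on chromatin. It was at 7.66, 7.36, 6.86 and 6.61 with HCC, against 7.71, 7.85, 8.35, 8.37 and 8.28 without HCC. Only 0.05 separated the groups, and Veh_high_1831 and Veh_high_2088 were lowest. It fell by 0.99 (SE 0.18, limma adjusted p = 0.019), with all 4 probe sets in this direction. Ncbp2, the small subunit of the nuclear cap-binding complex, was at 7.34, 7.35, 7.20 and 7.01 with HCC, against 7.67, 7.93, 7.70, 7.61 and 7.70 without HCC. The groups were 0.26 apart, with values of 7.01 to 7.35 with HCC and 7.61 to 7.93 without HCC. Ncbp2 fell by 0.50 (SE 0.082, limma adjusted p = 0.0136).

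Among chromatin genes, Smarca5, the ATPase of ISWI chromatin remodellers, was at 8.79, 8.67, 8.65 and 8.51 with HCC, against 9.04, 9.11, 9.11, 9.14 and 8.92 without HCC. It fell by 0.41 (SE 0.073, limma adjusted p = 0.019) in 3 of 3 probe sets. Rest, a repressor of neuronal genes, was at 6.96, 7.03, 7.15 and 6.90 with HCC and at 7.41, 7.41, 7.34, 7.50 and 7.62 without HCC. Its fall of 0.45 (SE 0.09, limma adjusted p = 0.0343) was seen by 2 of 4 probe sets, which ranged from -0.45 to 0.05. Averaged over its probe sets Rest differed by -0.016.

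Outside that list, Srrm1 encodes a splicing coactivator. It was at 7.68, 7.47, 7.88 and 7.55 with HCC and at 7.88, 7.97, 8.03, 8.01 and 7.93 without HCC, groups that met to within 0.01. Srrm1 fell by 0.32 (SE 0.063, limma adjusted p = 0.0334) in 5 of 5 probe sets. Ipo7, a nuclear import receptor, was at 9.79, 9.75, 9.62 and 9.56 with HCC and between 9.90 and 9.99 without HCC. Ipo7 fell by 0.27 (SE 0.053) and Atf1, a CREB family transcription factor, by 0.36 (SE 0.072), both with limma adjusted p = 0.0334. Atf1 was at 9.32 in both Veh_high_798 and Veh_low_1810, so its groups were separated only beyond 2 decimals.

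The wider set of such genes was lower in most members and by little. Of 22 genes measured for nuclear pore, chromatin and splicing proteins, 19 were lower with HCC, against 53.4% of all genes, and 8 of them had an unadjusted p under 0.05, against 5.53% of all genes. The list was written with 4 called members known, and among the other 18 there were 15 lower, with a median of -0.08 and 4 at an unadjusted p under 0.05. These were the RNA-binding protein genes Sfpq (-0.38, SE 0.12), Rbm25 (-0.29, SE 0.095) and Srsf2 (-0.25, SE 0.11) and the chromatin remodeller gene Chd1 (-0.26, SE 0.10), with limma adjusted p = 0.281, 0.31, 0.473 and 0.419. Probe sets of Rbm25 disagreed, with 2 of 4 lower. The 6 other genes for pore and export proteins were divided into 3 higher and 3 lower.

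Among the remaining genes past the threshold, Lonrf3 had the smallest p. It encodes a RING finger protein with a LON domain, a ubiquitin ligase by type. Levels were 5.81, 6.18, 5.45 and 5.27 with HCC, against 7.72, 7.33, 7.19, 6.53 and 6.74 without HCC. The gap between the groups was 0.34. Lonrf3 fell by 1.42 (SE 0.23, limma adjusted p = 0.0136), with a difference of -0.42 in its other probe set. As with Cry1, it was at 5.30 to 6.34 under sulindac and 5.31 to 5.96 under aspirin with clopidogrel, and at 6.61 to 7.35 in healthy mice. Those drug arms overlapped the mice with HCC, and the healthy mice overlapped the mice without HCC.

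Wrnip1, an ATPase gene that acts at stalled replication forks, was at 8.28, 8.01, 7.38 and 7.58 with HCC, against 8.33, 8.48, 8.37, 8.84 and 8.77 without HCC. It fell by 0.75 (SE 0.14, limma adjusted p = 0.0195). Fam13b, which encodes a protein with a RhoGAP domain, was at 8.38, 7.93, 7.33 and 7.15 with HCC, against 8.40, 8.40, 8.60, 8.56 and 8.38 without HCC. Veh_high_798 was at the level of the mice without HCC in Fam13b, and the fall of 0.77 (SE 0.15, limma adjusted p = 0.0334) became -0.31 without Veh_high_1831 and Veh_high_2088. Caln1, a calcium-binding protein gene known from brain, fell by 0.42 (SE 0.082, limma adjusted p = 0.0334), at 4.35 to 4.57 with HCC and 4.78 to 4.96 without HCC. It was dim, with a mean over all arrays below the median gene mean of 4.90, and its call was lost in 12 of 21 alternative settings.

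Fam114a1 was the single gene that rose. It was at 6.56, 6.82, 7.68 and 7.05 with HCC, against 6.27, 5.89, 5.65, 5.96 and 5.94 without HCC. All 4 mice with HCC were higher, with a gap of 0.29. The rise was 1.09 (SE 0.21, limma adjusted p = 0.0334), or 2.13-fold, and both probe sets shared it.

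Cholesterol synthesis genes were higher with HCC in 16 of 16 measured members, with a median difference of 0.70. Of these, 10 had an unadjusted p under 0.05, against 3.34% of all genes in that direction, and none passed after adjustment. Without Veh_high_1831 and Veh_high_2088 all 16 stayed higher, but 4 were at that level, against 249 of 17097 genes. Without Veh_low_794 and Veh_low_1819 there were 13, against 466 of 17097. Mvd, which encodes mevalonate diphosphate decarboxylase, was at 5.99, 7.34, 6.80 and 6.46 with HCC, against 4.46, 4.94, 5.02, 5.77 and 4.96 without HCC. Dhcr7, the last reductase of the pathway, was at 8.69, 9.56, 9.77 and 9.40 with HCC and at 8.35, 8.06, 7.62, 8.67 and 8.09 without HCC. Fdps, which makes farnesyl diphosphate, lay between 11.45 and 11.92 with HCC and between 10.10 and 11.33 without HCC. In all 3 genes Veh_low_794 was the highest mouse without HCC, and the groups did not overlap. Differences were 1.62 (SE 0.56) for Mvd, 1.2 (SE 0.46) for Dhcr7 and 0.93 (SE 0.38) for Fdps, with limma adjusted p = 0.336, 0.419 and 0.438. Sc5d and Hsd17b7 were the other members without overlap, differing by 0.36 (SE 0.14) and 0.67 (SE 0.28). In all, 5 of 16 were higher without overlap, against 1.02% of all genes.

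Sqle, squalene epoxidase, had the widest range of these genes. It was at 8.43, 9.79, 9.40 and 8.92 with HCC, against 7.50, 7.36, 4.87, 9.01 and 8.52 without HCC. Veh_low_794 and Veh_low_1819 overlapped the mice with HCC, and Veh_low_2091 was far lower than any other vehicle mouse. Sqle ranged from 5.89 to 9.12 under sulindac and from 6.38 to 10.50 under aspirin with clopidogrel, and was between 8.69 and 9.13 in healthy mice. Averaged over the 16 genes and set against the mean without HCC, the mice with HCC stood at 0.51, 1.08, 0.85 and 0.67. Mice without HCC stood at -0.21, -0.10, -0.67, 0.65 and 0.34, so Veh_low_794 overlapped the mice with HCC. Of 6 genes for sterol uptake and regulation, only Stard4, a sterol carrier, had an unadjusted p under 0.05 (0.59, SE 0.20). Srebf2 itself differed by 0.14 (SE 0.16).

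Promoters of Mvd, which had the largest separated difference of the pathway, and of Hmgcs1, which begins it, are shown for comparison of their elements. They lie at chr8:122443423-122443672 on the minus strand for Mvd and at chr13:119690101-119690350 on the plus strand for Hmgcs1. Capitals mark CCAAT boxes, which read ATTGG on the other strand, and in Hmgcs1 also the sterol element TCACNCCAC. No marked motif overlaps another.
Mvd: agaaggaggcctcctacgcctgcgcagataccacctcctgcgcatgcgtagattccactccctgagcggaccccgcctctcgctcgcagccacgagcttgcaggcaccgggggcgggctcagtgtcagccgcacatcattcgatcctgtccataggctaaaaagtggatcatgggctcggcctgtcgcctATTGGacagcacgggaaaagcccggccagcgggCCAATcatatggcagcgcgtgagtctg
Hmgcs1: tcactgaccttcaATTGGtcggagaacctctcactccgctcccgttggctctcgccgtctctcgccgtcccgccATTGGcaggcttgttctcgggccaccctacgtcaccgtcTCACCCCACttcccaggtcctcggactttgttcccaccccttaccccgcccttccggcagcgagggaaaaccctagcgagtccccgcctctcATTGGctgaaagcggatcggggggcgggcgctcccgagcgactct
In Mvd the CCAAT boxes began 60 and 27 bases before the start. In Hmgcs1 they began 237, 176 and 45 bases before it, with the sterol element at 137. CCAAT occurred in 13 of 15 promoters of cholesterol synthesis genes in the table (86.7%), against 33.8% of all promoters, and the sterol element in 1 of 15 (6.67%), against 1.05%. Hmgcs1 was at 5.81, 6.26, 4.99 and 4.57 with HCC, against 4.83, 5.00, 4.41, 4.89 and 4.86 without HCC, groups that overlapped.

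De novo lipogenesis genes were higher in 13 of 16 members, with a median of 0.62. Acly, which makes cytosolic acetyl-CoA, was the 1 member of 16 without overlap, against 1.02% of all genes higher without overlap. It was at 11.45, 11.99, 12.03 and 11.92 with HCC and at 11.36, 11.34, 11.27, 11.08 and 10.74 without HCC. Fasn, fatty acid synthase, overlapped between the groups (11.58 ± 0.39 with HCC and 10.81 ± 0.59 without HCC, SD, n = 4 and 5). Gpam, the first enzyme of triglyceride synthesis, differed by 0.61 (SE 0.24) and Pklr, liver pyruvate kinase, by 0.75 (SE 0.34), with limma adjusted p = 0.42 and 0.518. Veh_low_794 and Veh_low_1819 were lowest in Acly and Pklr. Without these 2 mice the median of the list was 0.19, while that of the cholesterol list (synthesis, uptake and regulators) was 0.88, beside 0.64 with them.

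**Figure D3:**
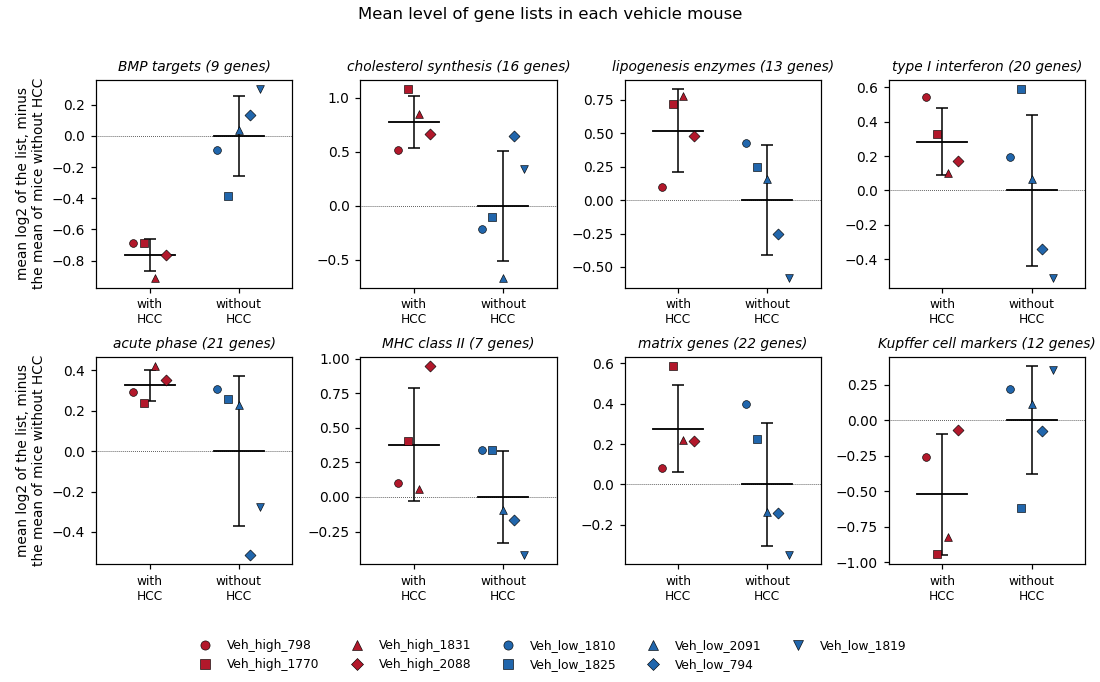
Mean log2 level of 8 gene lists in each vehicle mouse, set against the mean of the mice without HCC. Each symbol is 1 mouse, mice with HCC (red, n = 4) left of mice without HCC (blue, n = 5), and lines show mean and SD. Of the 8 lists plotted, that of BMP target genes, which holds Id1 and Id3, is without overlap between the groups, and Veh_low_794 and Veh_low_1819 are low for lipogenesis, interferon and acute phase genes.

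Fatty acid oxidation genes, the targets of the nuclear receptor PPAR-alpha, were lower in 17 of 21 members, with a median of -0.10, and 5 were lower at an unadjusted p under 0.05. Of all genes, 53.4% were lower and 5.53% lower at that level, and without Veh_high_1831 and Veh_high_2088 0 of the 21 were. Acot1, a cytosolic acyl-CoA thioesterase, was at 7.54, 6.57, 5.96 and 6.13 with HCC, against 8.76, 9.18, 9.12, 8.05 and 8.76 without HCC. The mice with HCC were lower by at least 0.52. The difference was -2.22 (SE 0.66, limma adjusted p = 0.277). Acot2, the mitochondrial paralog, differed by -1.94 (SE 0.68, limma adjusted p = 0.341), but the 2 genes are near-identical and their probe sets may read both. Cpt2, of the mitochondrial carnitine shuttle, differed by -0.22 (SE 0.10) and Ehhadh, of peroxisomal oxidation, by -0.36 (SE 0.11). Acot1 ranged from 6.22 to 8.63 under sulindac, from 6.30 to 9.81 under aspirin with clopidogrel and from 5.82 to 9.31 in healthy mice.

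Genes of fat storage and glycogen had members that were lower with HCC, none past the threshold. Ppp1r3c targets protein phosphatase to glycogen. It was at 10.72, 9.89, 9.33 and 8.55 with HCC, against 10.76, 11.39, 11.53, 11.47 and 11.42 without HCC. Veh_high_798 and Veh_low_1810 met to within 0.04. The difference was -1.69 (SE 0.40, limma adjusted p = 0.111), and its relative Ppp1r3b differed by -0.49 (SE 0.24). Angptl8, a feeding-induced regulator of lipoprotein lipase, was at 9.44, 8.50, 9.02 and 8.78 with HCC, against 9.88, 10.87, 10.88, 10.67 and 11.07 without HCC. It differed by -1.74 (SE 0.47, limma adjusted p = 0.197). G0s2, an inhibitor of the lipase of Pnpla2, differed by -0.89 (SE 0.35) without overlap, and the droplet coat gene Plin5 by -0.97 (SE 0.30) with overlap. Over 18 lipid droplet genes the median was -0.05, with 7 higher and 11 lower. Feeding state at collection is not given by the labels, and its part was not tested.

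A further 151 genes had an unadjusted p under 0.01 and no overlap, 35 of them higher and 116 lower with HCC. Only genes with a brighter group mean at or above the median gene mean were counted, and clone names were left out. Of all genes tested, at any p and brightness, 1.02% were higher and 1.98% lower without overlap. The largest increases after Mvd were in Fkbp11, a secretory pathway folding enzyme (1.39, SE 0.35), Mmd2 (1.14, SE 0.39) and Robo1, a Slit receptor (1.05, SE 0.26). Robo1 was at 6.80, 6.77, 6.53 and 6.67 with HCC, against 6.34, 5.88, 5.33, 5.54 and 5.14 without HCC. The mice with HCC were close together and the mice without HCC were spread over a wider range. Gnat1, Eepd1, Slc23a1, Nav2, Fam241b and Eef1akmt1 followed, with differences of 0.68 to 0.93. Slc23a1 transports vitamin C, and Eef1akmt1 methylates a translation elongation factor. Limma adjusted p for these 9 genes lay between 0.123 and 0.336.

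Zbtb16, a zinc finger transcription factor also called PLZF, came nearest to the threshold among the decreases. It was at 5.02, 5.41, 5.22 and 5.00 with HCC, against 7.71, 7.10, 7.51, 5.73 and 6.28 without HCC. Veh_low_794 and Veh_low_1819 were the lower mice without HCC, still above all mice with HCC. The difference was -1.70 (SE 0.36, limma adjusted p = 0.0616). Slc30a10, a manganese exporter, differed by -1.15 (SE 0.38), Ccnf, cyclin F, by -1.07 (SE 0.29), Hacl1, of peroxisomal alpha oxidation, by -0.91 (SE 0.21) and Nfxl1 by -0.90 (SE 0.28). In Slc30a10, Hacl1 and Nfxl1, Veh_high_798 was level with the lowest mouse without HCC to 2 decimals.

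**Figure D4:**
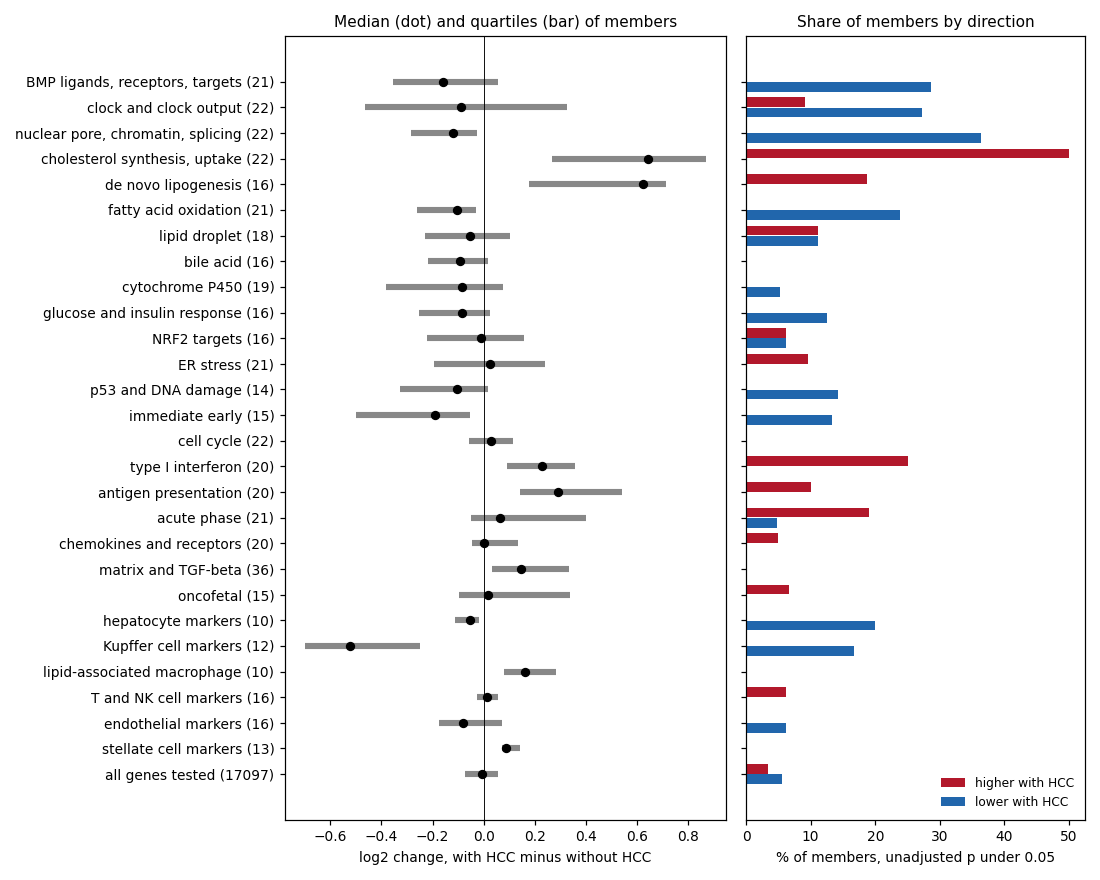
Left, the median (dot) and quartiles (bar) of the log2 difference, with HCC minus without HCC, over the members of each gene list and of all genes tested, with the number of members in brackets. Right, the percentage of members at an unadjusted p under 0.05, higher (red, above) or lower (blue, below) with HCC. The cholesterol list has 50% of its members higher at that level, against 3.34% of all genes, and the matrix list has 0.

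The mice with HCC are labelled as having fibrosis. Over 36 genes of matrix, remodelling and TGF-beta, 32 were higher with HCC, none at an unadjusted p under 0.05, and the median was 0.14. Col3a1, a fibrillar collagen gene, was at 9.36, 10.18, 10.08 and 9.85 with HCC, against 10.05, 9.81, 8.70, 8.55 and 7.49 without HCC. Veh_low_1810 and Veh_low_1825 were at the level of the mice with HCC. Col1a1, another fibrillar collagen, was at 4.45 to 4.59 with HCC and 4.22 to 4.68 without HCC. These are dim values, below the median gene mean of 4.90, and say little about a difference. Col4a1, of basement membrane, had the smallest unadjusted p of the list, 0.0911, with a difference of 0.86 (SE 0.49). Of 13 stellate cell and myofibroblast markers, 11 were higher, with a median of 0.09. Without Veh_low_794 and Veh_low_1819 the median of the matrix list was 0.05, and it was 0.09 without Veh_high_1770 and 0.10 without Veh_low_1819 alone.

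Antigen presentation genes were higher in 20 of 20 members, with a median of 0.29 and 2 at an unadjusted p under 0.05, against 46.6% higher and 3.34% higher at that level among all genes. The median was 0.12 without Veh_low_794 and Veh_low_1819, 0.11 without Veh_high_1831 and Veh_high_2088 and also 0.11 without Veh_high_2088 alone. Psmb9, an immunoproteasome subunit, was at 8.35, 8.55, 9.04 and 9.67 with HCC, against 8.01, 8.48, 7.63, 7.49 and 7.20 without HCC. Only Veh_low_1825 reached into the range of the mice with HCC. The difference was 1.14 (SE 0.33, limma adjusted p = 0.229), and 2 of 3 probe sets shared it. The 7 genes of MHC class II had a median of 0.43 (0.18 without Veh_low_794 and Veh_low_1819), all overlapping, with Veh_high_2088 the highest mouse of all 9 on average.

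Type I interferon genes were higher in 18 of 20 members, with a median of 0.23 that was 0.01 without Veh_low_794 and Veh_low_1819. Leaving out 1 mouse gave 0.06 without Veh_low_1819, 0.12 without Veh_low_794 and 0.36 without Veh_low_1825. Usp18, an interferon-induced protease, was at 7.99, 7.56, 7.28 and 7.42 with HCC, against 7.13, 7.83, 7.42, 5.71 and 5.76 without HCC. Ddx58, the RNA sensor RIG-I, differed by 0.41 (SE 0.16, limma adjusted p = 0.426). It was the 1 member of 20 without overlap, against 1.02% of all genes higher without overlap. Acute phase genes divided into 12 higher and 9 lower, with a median of 0.07. The neutrophil protein gene Lcn2, which hepatocytes also make in inflammation, was at 9.65, 10.35, 10.66 and 10.44 with HCC, against 10.00, 9.70, 9.26, 4.47 and 5.70 without HCC. Its difference of 2.45 (SE 1.14, limma adjusted p = 0.537) was 0.62 without Veh_low_794 and Veh_low_1819. Orm2 and Saa1, secreted by hepatocytes, showed the same division, with differences of 1.51 and 1.07 that were each 0.41 without those mice. Saa1 and Saa2 are near-identical, and their probe sets may read both.

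Genes of fetal liver and liver tumours were divided in direction. Of 15 measured, 8 were higher and 7 lower, with a median of 0.02. Afp, alpha-fetoprotein, was at 4.75, 4.94, 4.85 and 4.79 with HCC, against 5.13, 4.78, 4.74, 4.73 and 4.68 without HCC. Proliferation genes had 13 of 22 members higher, with a median of 0.03 and none at an unadjusted p under 0.05. Several were dim, and Top2a, Aurka, Bub1, Cenpe and Plk1 were below the median gene mean of 4.90 in every vehicle mouse. Ccnd1, Pcna, Mcm6 and Tyms were brighter. A lack of difference in the dim members says little. Among 15 immediate early genes 12 were lower, with a median of -0.19, and the lowest p was that of Ier2, with a difference of -0.65 (SE 0.17, limma adjusted p = 0.165). The NRF2 targets Srxn1, sulfiredoxin, and Gsta4, a glutathione transferase, were separated in opposite directions, by 1.42 (SE 0.53) and -0.70 (SE 0.19), with limma adjusted p = 0.403 and 0.179. Ephx1, another target, was also separated and lower, at 11.69, 11.65, 11.67 and 11.66 with HCC, against 11.94, 11.78, 11.82, 11.80 and 12.14 without HCC. Of 16 targets measured, 1 was separated and higher and 2 separated and lower, against 1.02% and 1.98% of all genes.

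Cell type markers were checked against the tissue label. Hepatocyte markers were present in all 9 livers, with Alb at 13.41 to 13.56 with HCC and 13.53 to 13.61 without HCC. Summed over 10 hepatocyte markers, intensity was 57622 to 60775 with HCC and 59324 to 64186 without HCC, and 9 of 10 were lower with HCC, with a median of -0.05. Cyp3a11, a cytochrome P450 gene, and Hnf4a, a hepatocyte transcription factor, differed by -0.18 (SE 0.058) and -0.26 (SE 0.092). Resident Kupffer cell markers were lower in 11 of 12 members, with a median of -0.52 that was -0.30 without Veh_high_1770 and -0.34 without Veh_high_1831, and their summed intensity was 5316 to 10039 with HCC and 7070.5 to 11739 without HCC. Id3 is 1 of these markers, and Slc40a1, an iron exporter, was the other without overlap (-0.35, SE 0.14, limma adjusted p = 0.441). That is 2 of 12, against 1.98% of all genes lower without overlap. The part of Kupffer cells in the values of Id3 was not tested. In bulk tissue, fewer cells of a type and less RNA per cell cannot be told apart. Clec4f, a defining Kupffer cell gene, was at 9.55, 7.87, 7.82 and 9.60 with HCC, against 9.48, 8.94, 9.76, 9.02 and 9.44 without HCC. It was low in Veh_high_1770 and Veh_high_1831 and not in the other mice with HCC.

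Summed markers of T and NK cells (370.5 to 430.0 with HCC, 364 to 387 without HCC), endothelial cells (2462 to 3788 with HCC, 2918 to 4275 without HCC) and lipid-associated macrophages (3456 to 5303 with HCC, 3432 to 5236 without HCC) overlapped. Markers of other tissue stood out in Veh_low_794, where the adipocyte gene Adipoq was at 8.27 and the plasma cell gene Jchain at 9.14. Adipoq was at 4.36 to 4.62 with HCC and at 4.29 to 4.45 in the other mice without HCC. Jchain was at 4.82 to 5.82 with HCC and at 4.83 to 6.53 in those others. Summed markers of pancreatic acinar cells were also highest in Veh_low_794, at 941, against 484 to 576 with HCC and 413 to 545 in the others without HCC. Signal of Actb at its 3′ end exceeded that at its 5′ end by 0.65, 0.89, 1.40 and 0.74 (log2) with HCC and by 0.89, 1.10, 1.0, 1.10 and 0.90 without HCC. Veh_high_1831 had the highest value, and it also had the lowest array weight of the 9 livers, 0.55 in limma's estimate. The part of RNA quality in the 10 genes most shifted in Veh_high_1831 and Veh_high_2088 was not tested.

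**Figure D5:**
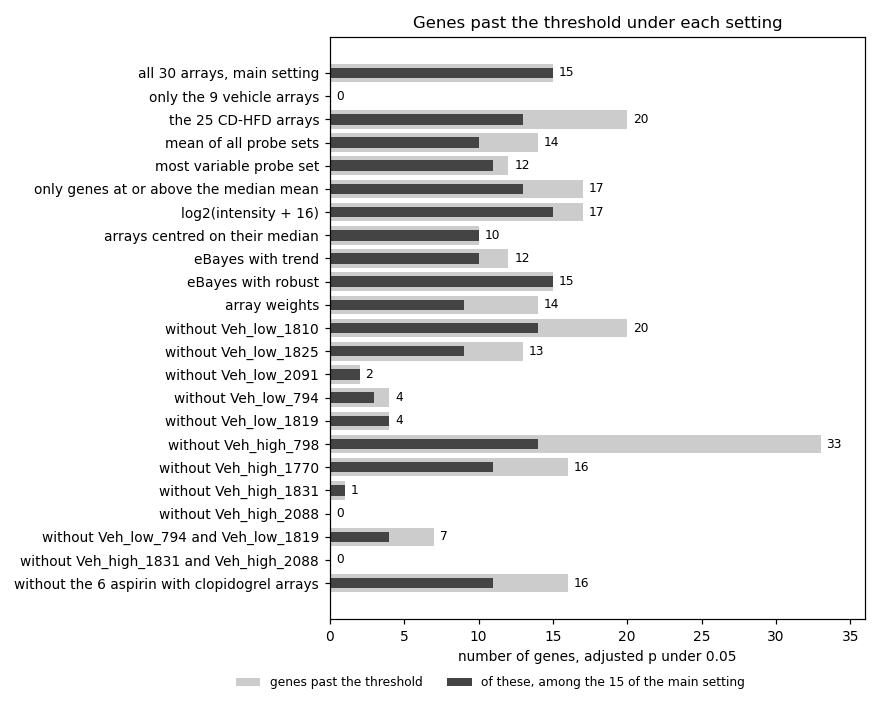
Number of genes past the adjusted threshold (light bars) under the main setting and 22 alternatives, and how many of these are among the 15 of the main setting (dark bars). The count is 0 with only the vehicle arrays, without Veh_high_2088 and without Veh_high_1831 and Veh_high_2088 together, and reaches 33 without Veh_high_798.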

How the data were processed

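Liver RNA of 30 mice was measured with Affymetrix HT MG-430 PM arrays, 1 per mouse. The deposited values are linear intensity values that the authors made by RMA with quantile normalization in the ExpressionFileCreator module, as stated in the submitters' processing notes and design text. Their log2 was taken here. Of 45141 probe sets, 28898 had 1 gene symbol, 551 several and 15588 none in the platform table (28689 of the 28898 matched RefSeq, 209 did not), and 104 were controls. Each of 17097 genes was represented by 1 probe set, the brightest on average among those with 1 symbol. Limma 3.58.1 in R 4.3.3 fitted 5 group means over the 30 arrays (residual df 25, prior df 2.37), and the contrast of vehicle with HCC minus vehicle without HCC was adjusted by the Benjamini-Hochberg method over all genes. Precision is limited by the number of arrays. The p-values rest on the spread between mice within groups, pooled over all 5 groups and not taken from the 9 vehicle mice alone. The fit was also run on 5 simulated sets with independent noise and 200 known changes each, in genes at or above the median gene mean. It called 54% of log2 changes of 0.5 and 98% of changes of 2, with 38 false calls over all sets. Independent noise cannot show how the calls depend on single mice, so this does not bear on that.

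Genes named were all those past the threshold, the 10 largest increases and 10 largest decreases among others with an unadjusted p under 0.01 and no overlap (brighter group mean at or above the median gene mean, clone names left out), and up to 4 members of each list with the smallest p. Further list members given as values, such as Tef, Per3, Usp2, Tfr2, Hfe, Id4, Smad9, Col1a1, Col3a1, Afp, Alb, Clec4f, Adipoq and Jchain, were chosen after their values were seen. Members and lists were chosen with earlier results of these data known. Alternatives covered the arrays in the fit, the probe set, dim genes, an offset of 16, centring, the prior, array weights and mice left out. Promoters came from RefSeq (GRCm38.p6); Id1 was not matched there and its sequence is not used here.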

Additional observations from a re-analysis of the deposited data

Results flagged for a closer look

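In 194 groups of 4 or 5 mice, formed by 97 genes with printed values, 11 groups (5.67%) had 1 mouse far from the others by Dixon's criterion, and chance flags about 1 in 20 groups. With HCC, Tsc22d3 was at 9.86 in Veh_high_1770, against 9.18 to 9.28 in the other 3 mice. Saa1 was at 11.31 in Veh_high_1770, against 11.81 to 11.90, and Pklr was at 8.99 in Veh_high_798, against 9.39 to 9.47.

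Without HCC, Veh_low_1810 was apart in Ppp1r3c (10.76, against 11.39 to 11.53), Gnat1 (4.65, against 4.77 to 4.82) and Afp (5.13, against 4.68 to 4.78). Veh_low_794 was apart in Acot2 (7.71, against 8.74 to 9.16) and Adipoq (8.27, against 4.29 to 4.45). Veh_low_2091 was apart in Hmgcs1 (4.41, against 4.83 to 5.00) and Alb (13.61, against 13.53 to 13.55). Among the genes past the threshold only Ncbp2 was marked, at 7.93 in Veh_low_1825, against 7.61 to 7.70 in the other mice without HCC.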

How the results depend on the processing

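The count of genes past the threshold, 15 in the main setting, was 0 with only the 9 vehicle arrays (1536 at an unadjusted p under 0.05 with limma), 7 without Veh_low_794 and Veh_low_1819 and 0 without Veh_high_1831 and Veh_high_2088 (974 at an unadjusted p under 0.05). Leaving out 1 vehicle mouse at a time gave 0 to 33 genes. It was 0 without Veh_high_2088 (1148 at an unadjusted p under 0.05), 1 without Veh_high_1831, 2 without Veh_low_2091, 4 without Veh_low_794, 4 without Veh_low_1819 and 33 without Veh_high_798. Lonrf3 and Ncbp2 passed without each of the 5 mice without HCC in turn, and the cause of the losses was not tested. With the other alternatives that kept all 9 vehicle mice the count was 10 to 20. It was lowest with each array centred on its median and highest with the 25 CD-HFD arrays alone, without the healthy mice. Without the aspirin with clopidogrel arrays, an alternative chosen after seeing the data, it was 16. Over 35 genes and all settings no difference changed sign in 769 values. All 35 genes had groups without overlap, so leaving out mice could not change a sign, and the stable signs add no support. Of 329 values of genes past the threshold, 179 kept the call and 150 lost it, and 12 values of the other genes gained one. The median over clock genes was between -0.41 and 0.05 and had the sign of the main value in 15 of 20 settings. No paired analysis was possible because the animal numbers in the labels are not shared between the groups. The depth of the arrays cannot be counted, and small differences such as those of Ipo7 and Srrm1 rest on the narrow spread between mice.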

Other observations

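Growth hormone targets had 7 of 18 members higher and 11 lower with HCC, with a median difference of -0.06. Elovl3, a fatty acid elongase gene, was at 11.08, 10.13, 9.81 and 8.95 with HCC, against 11.02, 11.53, 11.65, 12.46 and 12.27 without HCC. The groups overlapped by 0.06, through Veh_high_798 and Veh_low_1810, and the difference of -1.80 (SE 0.63) had a limma adjusted p = 0.342. Bile acid genes were lower in 12 of 16 members, none at an unadjusted p under 0.05, with a median of -0.09. Endoplasmic reticulum stress genes were divided into 11 higher and 10 lower, with a median of 0.03. Genes of p53 response were lower in 10 of 14 members, with a median of -0.11.

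Cyp2b9, a cytochrome P450 gene, was at 10.32, 10.22, 8.75 and 9.61 with HCC, against 9.78, 10.80, 10.79, 4.14 and 4.69 without HCC. Veh_low_794 and Veh_low_1819 were the low mice, as for Lcn2. Ly6d, a surface protein gene, had the same 2 mice lowest, at 5.72 and 6.05, against 9.49 to 10.25 with HCC and 7.99 to 10.59 in the other 3 mice without HCC.

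Xist, transcribed from the inactive X chromosome, was at 4.61 to 5.03 with HCC and 4.55 to 4.80 without HCC. Under aspirin with clopidogrel it ranged from 4.56 to 11.21 (median 10.98), while Y-linked Eif2s3y ranged from 4.14 to 9.10 there, against 8.38 to 9.0 with HCC and 8.63 to 8.90 without HCC. The 6 arrays of that arm enter the fit through the shared spread.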
